A study of Mus musculus with 10 samples.

Results

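The genes described here make up the synthesis of cholesterol and of fatty acids: 31 genes chosen by name, of 56691 in the deposited table. They comprise 18 enzymes of sterol synthesis, 7 enzymes of fatty acid synthesis and 6 genes that control or carry sterols (Srebf1, Srebf2, Scap, Insig1, Insig2 and Stard4). The list does not hold every enzyme of either pathway. RNA from mouse esophageal epithelium, freed of muscle and mesenchyme with forceps and Dispase, was sequenced in 10 libraries. Of these, 5 came from mice of the genotype p63CreERT2;Mst1loxp/loxp;Mst2-/- (KO) and 5 from wild-type mice (WT). Mst1 and Mst2 are the upstream kinases of the Hippo pathway. In KO mice the Mst2 alleles were null from the start. Mst1 was to be deleted by a tamoxifen-activated Cre recombinase. By its name the Cre is driven from the gene of p63, a regulator of basal cells in squamous epithelia. Both groups received tamoxifen in 3 doses of 100 mg/kg, every 2 weeks, and the epithelium was taken after about 8 weeks. Whether the WT mice carried a Cre allele, and whether both groups had 1 genetic background, is not given in the sources used here. Nothing in the labels states that the libraries came from different mice, and p-values therefore measure only the spread between these libraries, which may be technical.

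Cells build cholesterol from acetyl-CoA. The mevalonate steps make isoprenoid units, which are joined into squalene, closed into the ring of lanosterol and then trimmed and reduced to cholesterol. Fatty acids are built from the same acetyl-CoA by carboxylation, chain synthesis, elongation and desaturation. Both routes are controlled by the SREBP transcription factors, the products of Srebf1 and Srebf2. SCAP escorts them out of the endoplasmic reticulum when sterols are low, and the INSIG proteins hold them back when sterols are plentiful. In stratified squamous epithelia, cholesterol and fatty acids are used for the membranes of dividing cells and for the lipids that seal the surface.

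Values are FPKM, the fragments of a gene scaled by its length and by the total of the library, so levels can be compared between genes. The libraries held an estimated 13050000 to 15040000 fragments in KO and 14410000 to 16430000 in WT. The Stk3 gene, which encodes Mst2, had 0.05 to 0.25 FPKM in KO and 2.08 to 3.48 FPKM in WT. Stk4, the gene of Mst1, had 12.22 to 17.38 FPKM in KO and 16.96 to 22.73 FPKM in WT, so most of its transcript remained. A gene-level value does not show whether that transcript lacks the floxed part. Every member passed the filter on low values, at least 1 FPKM in at least 5 libraries. Squamous epithelium markers (keratins, Trp63 and Sox2) were abundant in all libraries, with sums of 63760 to 69862 FPKM over 8 genes in KO and 65938 to 71237 FPKM in WT, mostly from Krt13 and Krt4. Trp63, the p63 gene, which marks basal cells, was lower in KO, with 22.6 ± 3.58 FPKM in KO and 38.8 ± 5.45 FPKM in WT (SD, n = 5 each; limma adjusted p = 0.00293, no overlap). Its part in the members' differences was not tested. The other 7 markers did not pass, among them Krt6a, at 454.45 to 1334.59 FPKM in KO and 74.48 to 720.63 FPKM in WT. The basal keratin genes Krt5, Krt14 and Krt15 went the other way from Trp63, with log2 fold changes of 0.40, 0.29 and 0.11. Adipocytes and sebaceous glands are rich in lipid synthesis, so their markers were examined. Of 14 adipocyte markers 11 stayed below 1 FPKM in all libraries, Adipoq, Cidec, Lep, Cfd, Pck1 and Car3 were listed at 0 in all, and the sum was 8.53 to 13.5 FPKM in KO and 6.23 to 12.8 FPKM in WT, mostly from Lipe and Pparg. The 7 sebaceous markers summed to 9.45 to 21.4 FPKM in KO and 16.3 to 30.1 FPKM in WT, mostly from Cidea, with Elovl3 listed at 0 in all. In such bulk RNA, fewer cells of a type and less RNA per cell cannot be told apart.

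Between the genotypes, a few sterol enzymes and the sterol carrier Stard4 were higher in KO, and 1 of 7 fatty acid enzymes, Acaca, was lower. Differences were tested as log2(FPKM + 1) with limma across 11386 genes, with Benjamini-Hochberg adjustment over all of them and a threshold of 0.05. Of the 31 members, 5 were higher in KO, against 7.90% of all tested genes. These were the sterol enzymes Acat2, Idi1, Sqle and Nsdhl and the carrier Stard4. The fatty acid enzyme Acaca was lower, 1 of 31 members against 4.96% of all tested genes, and its adjusted p of 0.0498 lay at the threshold. The other 25 members did not pass. That does not show that they were unchanged. In simulated data the test recovered only 23.9% of log2 changes of 0.5. The simulation changed fewer genes than were called here, which makes the adjusted threshold stricter, and used the spread of all tested genes. Its share is therefore not the rate for these members. Called members were 19.4% of the members, against 12.9% of all tested genes, and the members were chosen with earlier results of these data known. Every member's log2 fold change lay between -0.45 and 0.55, so the changes were moderate in size.

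**Figure D1:**
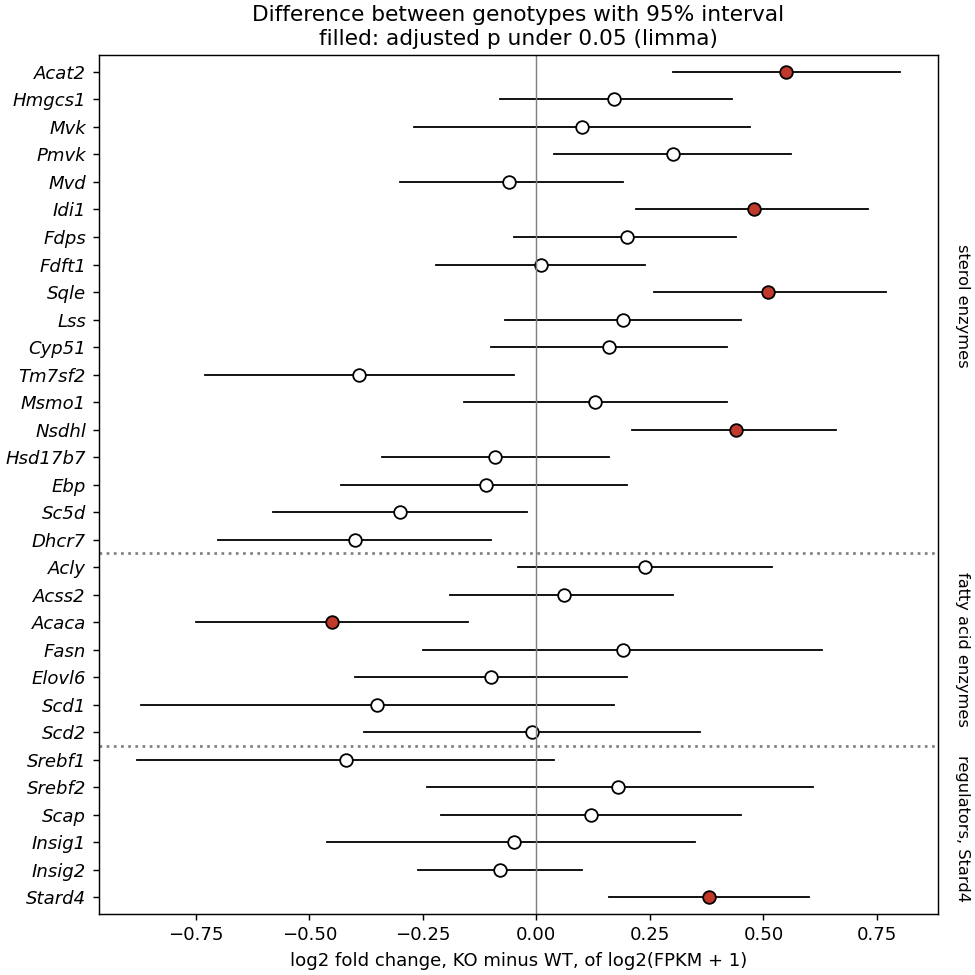
The horizontal axis gives the log2 fold change of each member, KO minus WT, on the log2(FPKM + 1) scale, with its 95% interval from limma; filled points had an adjusted p under 0.05. The filled points are Acat2, Idi1, Sqle, Nsdhl and Stard4 on the right and Acaca on the left.

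Of the 7 enzymes that lead from acetyl-CoA to farnesyl diphosphate, 2 rose, none fell and 5 did not pass. A positive fold change was seen for 6 of the 7, and for 58.6% of all tested genes. Acat2 (ENSMUSG00000023832, chromosome 17) joins a pair of acetyl-CoA units, the first step. It had 38.95, 33.77, 44.3, 40.09 and 42.6 FPKM in KO libraries 1 to 5, against 22.67, 28.26, 31.94, 28.63 and 24.21 FPKM in WT libraries 1 to 5. Every KO library was above every WT library. The means were 39.9 ± 4.04 FPKM in KO and 27.1 ± 3.71 FPKM in WT (SD, n = 5 each), 47.2% higher in KO. The log2 fold change of Acat2 was 0.55 (SE 0.11, limma adjusted p = 0.00991), and it held when any 1 library was left out. The value is uncertain in 1 respect, since a share of 0.437 of the 31-base sequences of Acat2 also occurs in its near copy Acat3, at 0.03 to 0.54 FPKM in KO and 0.06 to 0.21 FPKM in WT. A share of 0.132 also occurs in Tcp1, a chaperonin gene at 51.35 to 70.85 FPKM in KO and 42.44 to 59.76 FPKM in WT. Whether reads of either gene entered the Acat2 value was not tested.

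Idi1 (ENSMUSG00000058258, chromosome 13) converts isopentenyl diphosphate into its isomer so that isoprenoid units can be joined. It had 24.37, 18.91, 16.76, 17.19 and 18.85 FPKM in KO libraries 1 to 5, against 11.71, 13.6, 15.72, 13.23 and 13.05 FPKM in WT libraries 1 to 5. The groups did not overlap, and KO 1 was the highest library. The log2 fold change was 0.48 (SE 0.12, limma adjusted p = 0.0208). Without WT 1 or WT 5 the call was lost, with adjusted p of 0.0564 and 0.0539. A share of 0.271 of the 31-base sequences of Idi1 also occurs in other genes. The pseudogene Gm13502 holds 0.184 and was at 4.66 to 8.12 FPKM in KO and 3.73 to 6.49 FPKM in WT. Gm48574, on the opposite strand, and the pseudogene Gm35570 hold 0.083 and 0.082 and stayed at or below 0.21 FPKM, so how reads were divided among these genes is uncertain.

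The other mevalonate enzymes did not pass. Hmgcs1, the synthase that makes the precursor of mevalonate, was the most abundant member, with 174.7, 159.4, 151.4, 131.46 and 174.9 FPKM in KO and 136.28, 137.07, 155.14, 148.28 and 122.98 FPKM in WT. Its groups overlapped, and its log2 fold change of 0.17 had a 95% interval of -0.08 to 0.43 (limma adjusted p = 0.343). Pmvk, which adds the second phosphate to mevalonate, had 40.1 ± 3.31 FPKM in KO and 32.6 ± 5.5 FPKM in WT (SD, n = 5 each; limma adjusted p = 0.112). Pmvk passed only when WT 3, its highest WT library, was left out (adjusted p = 0.0432). Fdps, which builds farnesyl diphosphate, had 46.8 ± 2.04 FPKM in KO and 41 ± 6.68 FPKM in WT, values that are uncertain because a share of 0.279 of its 31-base sequences also occurs in other genes. The kinase gene Mvk, at 27.8 ± 4.14 FPKM in KO and 26.3 ± 6.38 FPKM in WT, and the decarboxylase gene Mvd, at 23.5 ± 1.85 and 24.6 ± 3.57 FPKM in KO and WT, lay within the spread of their libraries.

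The 3 enzymes from farnesyl diphosphate to lanosterol all had positive fold changes, and 1 passed. Sqle (ENSMUSG00000022351, chromosome 15) is squalene epoxidase, a rate-limiting enzyme of the sterol branch. It had 76.81, 69.21, 72.43, 62.24 and 76.92 FPKM in KO libraries 1 to 5, against 45.92, 46.01, 63.79, 50.01 and 44.79 FPKM in WT libraries 1 to 5. In 4 of 5 KO libraries it was above all WT libraries, and KO 4 lay just under WT 3. The log2 fold change was 0.51 (SE 0.12, limma adjusted p = 0.0152), and without each single library the adjusted p was 0.00423 to 0.0465. Fdft1, squalene synthase, had 95.3 ± 7.73 FPKM in KO and 95 ± 9.51 FPKM in WT (SD, n = 5 each), with a log2 interval of -0.22 to 0.24. Its exons overlap those of Ctsb on the other strand, and use of strand in the counting is not given. A share of 0.319 of the 31-base sequences of Fdft1 also occurs in other genes. Lss, which closes the ring of lanosterol, had 17.6 ± 1.51 FPKM in KO and 15.5 ± 2.4 FPKM in WT and did not pass (limma adjusted p = 0.315).

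After lanosterol the fold changes ran both ways: 1 of 8 members rose, none fell, and 5 had a negative fold change. Nsdhl (ENSMUSG00000031349, chromosome X) is a sterol dehydrogenase that takes part in removing methyl groups from the ring. It had 41.04, 35.02, 33.84, 35.57 and 36.91 FPKM in KO libraries 1 to 5, against 24.84, 26.79, 32.59, 24.82 and 24.79 FPKM in WT libraries 1 to 5. All KO libraries were above all WT libraries, of which WT 3 came nearest. The log2 fold change was 0.44 (SE 0.1, limma adjusted p = 0.0169), and without WT 5 the adjusted p was 0.0504. Nsdhl shares none of its 31-base sequences with another gene.

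The lowest fold changes of the sterol enzymes were those of Dhcr7, Tm7sf2 and Sc5d, and none passed. Dhcr7, the reductase of a last step to cholesterol, had 9.96, 10.85, 14.56, 12.9 and 14.16 FPKM in KO and 18.26, 13.29, 14.95, 20.34 and 17.13 FPKM in WT. In 3 of 5 KO libraries it was below all WT libraries. Its log2 fold change was -0.40 (SE 0.14, limma adjusted p = 0.0737). It passed under 3 of 23 alternatives, among them without WT 2 (adjusted p = 0.035) and with quantile normalization (0.0381). Tm7sf2, a sterol reductase, had 6.71 ± 1.47 FPKM in KO and 9.11 ± 1.88 FPKM in WT (SD, n = 5 each, limma adjusted p = 0.115). The exons of Tm7sf2 overlap those of Vps51 on the same strand, and a share of 0.133 of its 31-base sequences also occurs in other genes. Sc5d, a sterol desaturase, had 32.1 ± 6.01 FPKM in KO and 39.3 ± 3.9 FPKM in WT (limma adjusted p = 0.147). The demethylase gene Cyp51 had 99.9 ± 11.5 FPKM in KO and 89.3 ± 10.9 FPKM in WT, and the methylsterol oxidase gene Msmo1 62.7 ± 10.1 and 57.2 ± 8.37 FPKM in KO and WT. The reductase gene Hsd17b7 and the isomerase gene Ebp had log2 fold changes of -0.09 and -0.11. The intervals of these last 4 genes all held 0, with bounds between -0.43 and 0.42.

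**Figure D2:**
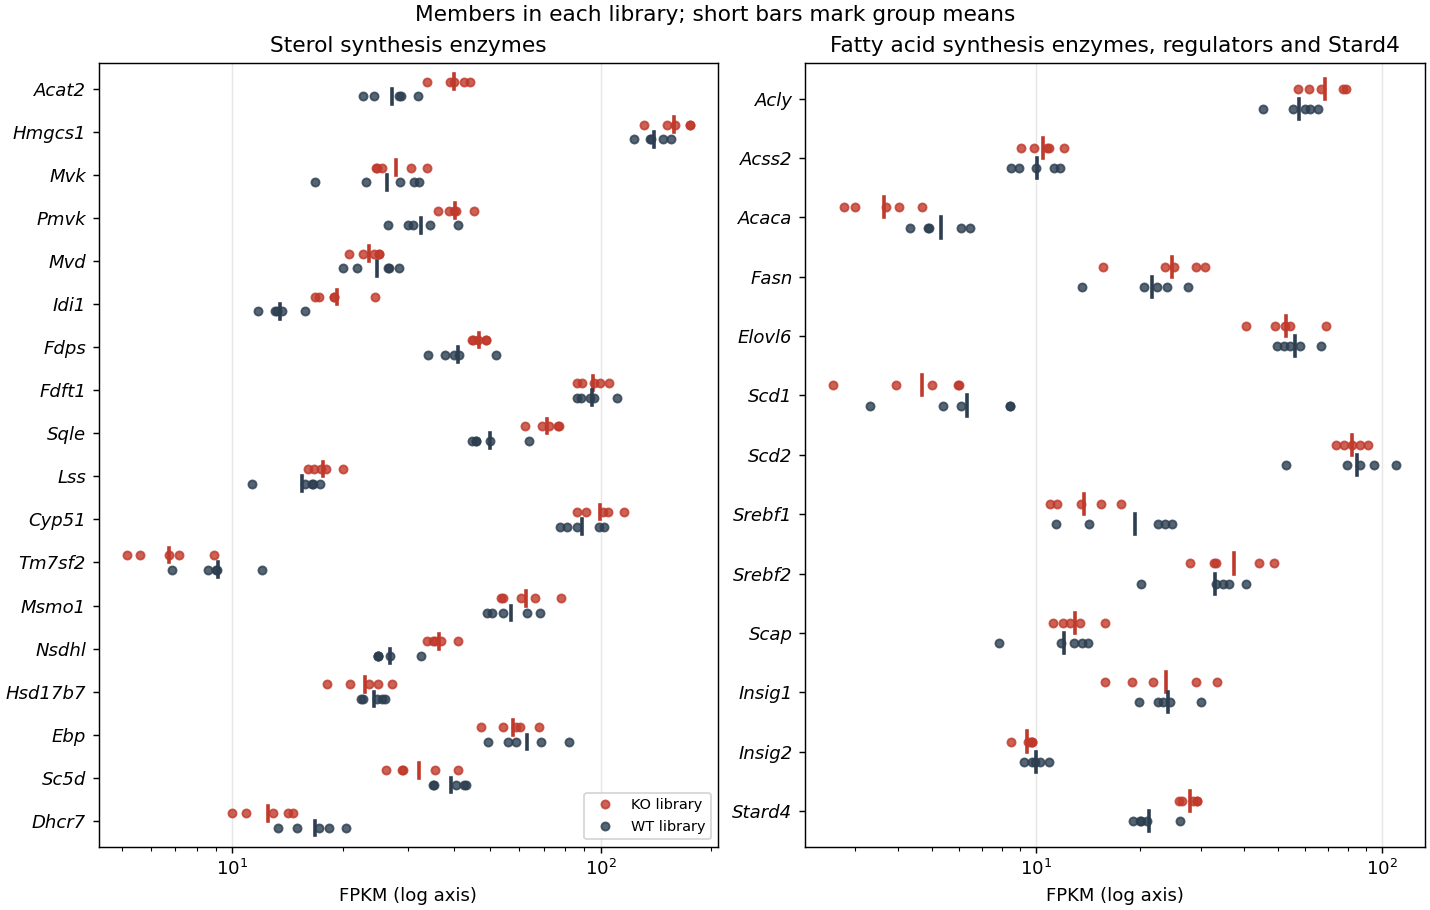
The plot shows FPKM on a log axis for each member in the 5 KO libraries (red, upper row of each gene) and the 5 WT libraries (dark, lower row), with short bars at the group means. For Acat2, Idi1 and Nsdhl the 2 rows do not overlap, whereas the rows of Fdft1, Mvd and Scd2 lie over each other.

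Non-overlapping groups were found for 3 of 31 members, Acat2, Idi1 and Nsdhl, all higher in KO, against 6.62% of all tested genes, and for no member lower in KO, against 3.88%. The 250 bases before the RefSeq start of these 3 genes are shown because they were the members whose libraries separated by genotype. They are given 5′ to 3′ on the gene's strand from RefSeq on GRCm38.p6, which is not the build mm9 that the submitters name. Capitals mark matches, on either strand, to the searched motifs: CCAAT (bound by NF-Y), GGGCGG (Sp1 family), CACGTG (E-box) and TCACNCCAC, a form of the sterol regulatory element. TCACCCCAC is a subset of that last form, and no other motif contains another.
Acat2, chr17:12960726-12960975, minus strand: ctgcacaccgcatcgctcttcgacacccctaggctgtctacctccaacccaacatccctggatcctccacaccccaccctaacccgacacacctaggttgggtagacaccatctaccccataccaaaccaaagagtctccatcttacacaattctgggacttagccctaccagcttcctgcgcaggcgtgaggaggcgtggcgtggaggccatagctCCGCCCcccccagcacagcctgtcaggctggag
Idi1, chr13:8885356-8885605, plus strand: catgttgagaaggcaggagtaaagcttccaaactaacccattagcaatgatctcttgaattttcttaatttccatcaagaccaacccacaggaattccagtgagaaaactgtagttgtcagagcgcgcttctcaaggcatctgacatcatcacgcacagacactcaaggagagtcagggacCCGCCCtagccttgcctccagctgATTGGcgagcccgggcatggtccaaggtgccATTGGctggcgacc
Nsdhl, chrX:72918271-72918520, plus strand: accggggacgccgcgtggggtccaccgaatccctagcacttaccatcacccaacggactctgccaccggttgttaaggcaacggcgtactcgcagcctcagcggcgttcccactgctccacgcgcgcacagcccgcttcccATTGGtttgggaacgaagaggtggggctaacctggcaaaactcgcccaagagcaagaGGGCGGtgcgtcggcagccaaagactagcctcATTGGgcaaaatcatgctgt

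Idi1 and Nsdhl each held 2 copies of CCAAT, read on the other strand as ATTGG, and 1 copy of GGGCGG in these bases, and Acat2 held only the GGGCGG match. RefSeq promoters, 250 bases before to 50 bases after a start, were matched for 25 of the 31 members, and not for Fdft1, Fdps, Scd1, Scd2, Sqle and Stard4. Of these 25 genes, 21 held CCAAT in at least 1 promoter, among them 14 of 15 sterol enzymes and 3 of 5 fatty acid enzymes. By promoter, 66.7% of the members' 33 windows held CCAAT, against 37.4% of all 32851 windows of this length. GGGCGG was in 75.8% of the members' windows and in 35.7% of all windows, and CACGTG in 18.2% and 7.15%. All windows were not limited to genes tested here, whereas every member was tested. The shares over tested genes alone were not counted, so these values do not set the members apart from other expressed genes. The sterol element TCACNCCAC was in 1.24% of all windows and in 1 of the members' 33 windows, that of Hmgcs1. It is shown with 15 bases on each side, beginning 137 bases before the start and in capitals.
Hmgcs1, chr13:119690199-119690237, plus strand: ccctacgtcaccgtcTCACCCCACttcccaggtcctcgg

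These matches describe letters only. The member with the sterol element, Hmgcs1, did not pass the test. Acaca, which was lower, and Elovl6, which did not pass, both held none of the motifs in their RefSeq windows.

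Among the 7 enzymes of fatty acid synthesis none rose and 1 fell, and the call of that 1 rested on several libraries. Acaca (ENSMUSG00000020532, chromosome 11), acetyl-CoA carboxylase, makes the malonyl-CoA for the committed step. It had 3, 2.79, 3.7, 4.69 and 4.02 FPKM in KO libraries 1 to 5, against 6.46, 4.32, 4.91, 4.89 and 6.1 FPKM in WT libraries 1 to 5. In 4 of 5 KO libraries it was below all WT libraries, and KO 4 lay within the WT range. The log2 fold change was -0.45 (SE 0.14, limma adjusted p = 0.0498). Leaving out WT 2 or KO 4 kept the call, and leaving out any of the other 8 libraries ended it, with adjusted p of 0.0295 to 0.124 over the 10. A share of 0.335 of its 31-base sequences also occurs in other genes, and 0.317 in the pseudogene Gm5182, at 2.42 to 4.61 FPKM in KO and 2.73 to 4.77 FPKM in WT.

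Fasn, the fatty acid synthase itself, had 23.66, 15.63, 28.98, 25.06 and 30.79 FPKM in KO libraries 1 to 5, against 27.63, 13.63, 20.58, 24.04 and 22.49 FPKM in WT libraries 1 to 5. The groups overlapped, with library 2 the lowest in each, and the log2 fold change of 0.19 had a 95% interval of -0.25 to 0.63 (limma adjusted p = 0.574). Scd2, a desaturase that makes monounsaturated fatty acids, was the most abundant of this group, with 77.59, 73.96, 91.19, 82.34 and 86.58 FPKM in KO and 110.31, 52.82, 86.64, 94.78 and 79.57 FPKM in WT. The KO libraries of Scd2 lay inside the WT range (log2 interval -0.38 to 0.36). Its relative Scd1 was low, at 4.71 ± 1.45 FPKM in KO and 6.33 ± 2.18 FPKM in WT (SD, n = 5 each), with the interval -0.87 to 0.17. Acly, which cuts citrate into the acetyl-CoA that both pathways use, had 68.4 ± 9.55 FPKM in KO and 57.7 ± 7.88 FPKM in WT (limma adjusted p = 0.236). Acss2, which makes acetyl-CoA from acetate, had 10.5 ± 1.13 FPKM in KO and 10.1 ± 1.42 FPKM in WT. The elongase gene Elovl6 had 53.1 ± 10.4 FPKM in KO and 56.2 ± 6.51 FPKM in WT. None of these differences passed.

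Set side by side, 4 of 18 sterol enzymes and 0 of 7 fatty acid enzymes rose, where 7.90% of all tested genes did, and 0 and 1 fell, where 4.96% did. With 7 genes these shares are too coarse to set the fatty acid enzymes apart from all genes. At an unadjusted limma p under 0.05 stood 8 sterol enzymes and 1 fatty acid enzyme, in both directions. Of the sterol enzymes, Acat2, Pmvk, Idi1, Sqle and Nsdhl were higher in KO, and Dhcr7, Tm7sf2 and Sc5d were lower. The fatty acid enzyme, Acaca, was lower. The share of all tested genes at that unadjusted p was not counted. The median log2 fold change was 0.15 over the sterol enzymes and -0.01 over the fatty acid enzymes, beside 0.06 over all 11386 tested genes. With quantile normalization the medians were 0.02 for sterol and -0.15 for fatty acid enzymes, beside 0.009 over all tested genes. With median-ratio scaling they were 0.08 and -0.07, beside -0.001 over all tested genes. Without WT 1 both medians were 0.10, and with the mesenchyme and muscle covariate described further on they were -0.09 for sterol and 0.16 for fatty acid enzymes, in the opposite order. The summed level was 871.3 ± 52.4 FPKM in KO and 791.5 ± 75.3 FPKM in WT for the sterol enzymes (SD, n = 5 each), and 247.5 ± 22.1 FPKM in KO and 242.2 ± 37.4 FPKM in WT for the fatty acid enzymes. Both sums overlapped between the groups. The mean log2 level of the sterol enzymes minus that of the fatty acid enzymes was 0.97, 0.96, 0.77, 0.55 and 0.76 in KO libraries 1 to 5 and 0.30, 0.92, 0.80, 0.61 and 0.57 in WT libraries 1 to 5. This difference overlapped too, so the balance of the 2 pathways did not separate the genotypes.

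Within sterol synthesis, fold changes at the early steps were positive for 6 of the 7 mevalonate and isoprenoid enzymes and all 3 enzymes to lanosterol. At the late steps, after lanosterol, 5 of 8 were negative, and none of these passed. Those of Hsd17b7 and Ebp were only -0.09 and -0.11. Of all tested genes 58.6% had a positive fold change, and with so few enzymes per step these shares are coarse. The median log2 fold change was 0.20 over the 7 mevalonate and isoprenoid enzymes, 0.19 over the 3 enzymes to lanosterol and -0.10 over the 8 enzymes after lanosterol. The mean log2 level of the first 7 minus that of the last 8 was 0.34, 0.26, 0.50, 0.28 and 0.33 in KO libraries 1 to 5, and -0.03, -0.07, 0.14, 0.13 and -0.06 in WT libraries 1 to 5. All KO libraries were above all WT libraries in this measure. The split into steps follows the chemistry but was looked at after the values were seen, so the difference is a description with no test.

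**Figure D3:**
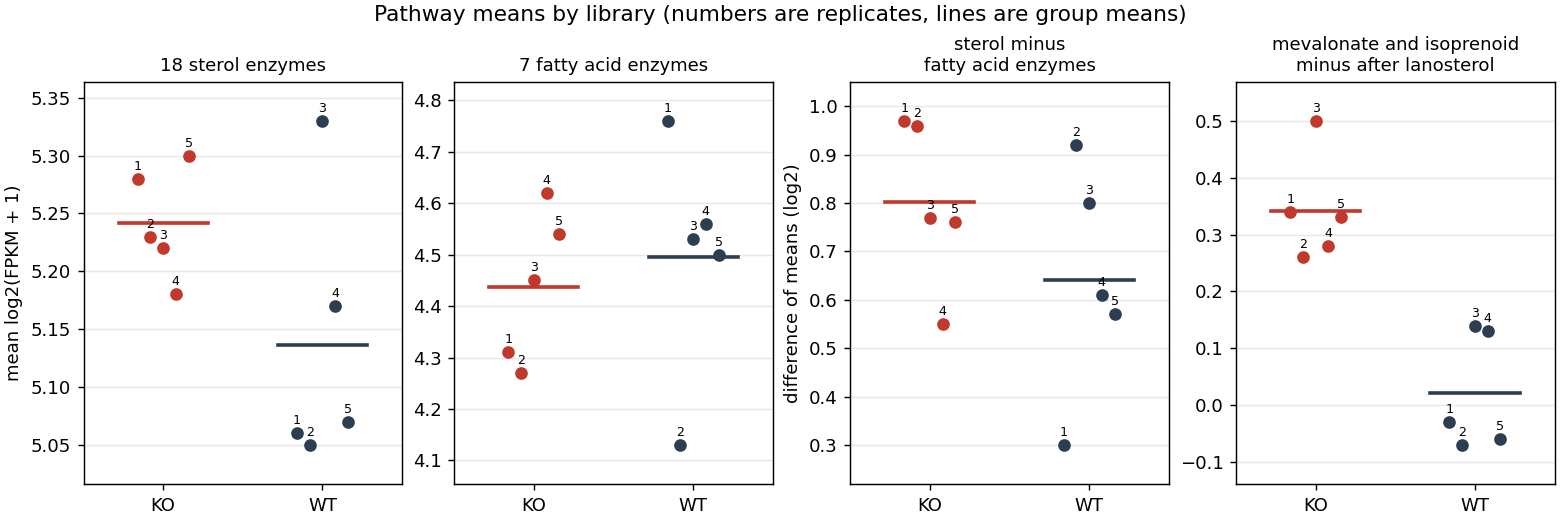
The panels show, for each library, the mean log2(FPKM + 1) of the sterol enzymes, that of the fatty acid enzymes, their difference, and the difference between early and late sterol enzymes; points carry the replicate number and lines mark group means. In the first 3 panels KO and WT overlap, and in the last KO lies at 0.26 to 0.50 and WT at -0.07 to 0.14.

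Transcripts of the SREBP machinery did not pass the test. Srebf2, whose product mainly drives sterol synthesis, had 33.3, 27.95, 48.94, 32.81 and 44.3 FPKM in KO libraries 1 to 5, against 34.77, 20.1, 33.27, 40.66 and 36.14 FPKM in WT libraries 1 to 5. Its groups overlapped, and the interval of its log2 fold change was -0.24 to 0.61 (limma adjusted p = 0.565). Srebf1, whose product mainly drives fatty acid synthesis, had 11.49, 11, 17.67, 15.43 and 13.5 FPKM in KO and 22.53, 11.46, 14.23, 24.81 and 23.58 FPKM in WT. Of the KO libraries 4 of 5 lay within the WT range, where WT 2 and WT 3 were low (log2 fold change -0.42, interval -0.88 to 0.04, limma adjusted p = 0.208). Scap had 13.46, 11.23, 15.89, 11.98 and 12.59 FPKM in KO and 13.6, 7.83, 11.86, 14.18 and 12.9 FPKM in WT (limma adjusted p = 0.639).

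Insig1, itself switched on by SREBP, had 33.33, 29.04, 21.77, 15.85 and 19 FPKM in KO libraries 1 to 5, against 30.05, 24.46, 22.57, 23.32 and 19.88 FPKM in WT libraries 1 to 5. KO libraries were both the highest and the lowest of the 10, and the interval was -0.46 to 0.35 (limma adjusted p = 0.888). Insig2, the other INSIG gene, had 9.52, 8.5, 9.74, 9.78 and 9.67 FPKM in KO and 9.26, 9.79, 10.91, 10.26 and 9.95 FPKM in WT (interval -0.26 to 0.10, limma adjusted p = 0.564). Stard4 (ENSMUSG00000024378), a soluble protein that carries cholesterol between membranes, was higher in KO. It had 29.21, 28.5, 25.99, 26.44 and 29.28 FPKM in KO libraries 1 to 5, against 19.08, 21.04, 26.21, 20.12 and 20.06 FPKM in WT libraries 1 to 5. Only WT 3 reached the KO range, and the log2 fold change was 0.38 (SE 0.1, limma adjusted p = 0.0295). The Stard4 call was lost without WT 1, 4 or 5 or KO 1, 2 or 5, with adjusted p of 0.0526 to 0.0778.

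Genes next to these pathways were counted in 6 lists. Over all tested genes 7.90% rose and 4.96% fell, 12.9% in either direction. Of 14 isoprenoid branch genes, all tested, 3 (21.4%) rose and none fell. They were Rabggtb, a subunit of the enzyme that attaches geranylgeranyl groups to Rab proteins (37 ± 4.98 FPKM in KO, 22.8 ± 2.83 FPKM in WT, SD, n = 5 each; limma adjusted p = 0.00345), Nus1, a subunit of the dolichol synthase (20.2 ± 1.77 and 13.2 ± 1.72 FPKM in KO and WT), and Pdss1, which makes the tail of coenzyme Q (2.63 ± 0.437 and 1.46 ± 0.344 FPKM in KO and WT). The median log2 fold change of that list was 0.10. Of 11 genes that process or degrade SREBP and its partners, and of 11 tested genes of sterol uptake, transport and oxidation, 0 passed in limma, with 1 of each at an unadjusted p under 0.05.

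Of 17 tested genes of fatty acid supply, elongation, desaturation and activation, 3 rose and 1 fell, 23.5% in either direction, with a median of 0.19. Fads2, the first desaturase of polyunsaturated fatty acids, had 33.79, 30, 35.03, 25.19 and 31.3 FPKM in KO libraries 1 to 5, against 16.06, 17.41, 16.09, 16.95 and 13.27 FPKM in WT libraries 1 to 5. Every KO library of Fads2 was above every WT library. The difference was 0.92 on the log2 scale (SE 0.11), with a limma adjusted p of 0.000279. Fads1, the desaturase that acts after it, had 5.78 ± 0.992 FPKM in KO and 4.56 ± 0.808 FPKM in WT and did not pass (limma adjusted p = 0.176). Acsl5, which activates fatty acids with coenzyme A, had 46.9 ± 2.13 FPKM in KO and 33.2 ± 5.02 FPKM in WT, and Hacd3, of the elongation cycle, 63.2 ± 7.56 FPKM in KO and 43 ± 7.66 FPKM in WT. The Hacd3 call was lost without WT 5 (adjusted p = 0.0534) or KO 1 (0.0512). Me1, malic enzyme, which supplies NADPH for fatty acid synthesis, had 80.18, 87.59, 80.23, 86.7 and 79.21 FPKM in KO libraries 1 to 5, against 174.24, 120.79, 123.79, 129.43 and 146.79 FPKM in WT libraries 1 to 5. Me1 thus lay apart between the groups as well, lower in KO (log2 fold change -0.73, SE 0.12, limma adjusted p = 0.00209).

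Of 14 tested genes of glycerolipid synthesis and storage, 1 rose and 1 fell. This was 14.3% in either direction, near the 12.9% of all tested genes. Agpat2, which adds the second fatty acid to glycerol phosphate, had 29.5 ± 10.5 FPKM in KO and 12.5 ± 2.1 FPKM in WT (SD, n = 5 each; log2 fold change 1.14, limma adjusted p = 0.00365). Gpam, which adds the first, had 3.96 ± 0.827 FPKM in KO and 7.38 ± 2.43 FPKM in WT (limma adjusted p = 0.0357), a call that was lost without 7 of the 10 single libraries (WT 1, 4 and 5, KO 1, 2, 3 and 5; adjusted p up to 0.0917). A further list held LXR, the sterol-sensing nuclear receptor, its partners and targets, and the carbohydrate-responsive factor ChREBP with its partner Mlx. Of its 8 tested genes none rose and 1 fell, or 12.5%, again near the share of all tested genes. The gene that fell was Mylip, a ubiquitin ligase that LXR switches on, with 9.44, 11.36, 4.24, 7.86 and 6.2 FPKM in KO libraries 1 to 5, against 26.1, 19.06, 15.11, 20.11 and 13.56 FPKM in WT libraries 1 to 5. All KO libraries of Mylip were below all WT libraries (log2 fold change -1.19, SE 0.23, limma adjusted p = 0.00657). The cholesterol exporter gene Abca1 had 1.45 ± 1.04 FPKM in KO and 5.13 ± 3.47 FPKM in WT and did not pass (limma adjusted p = 0.0658).

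**Figure D4:**
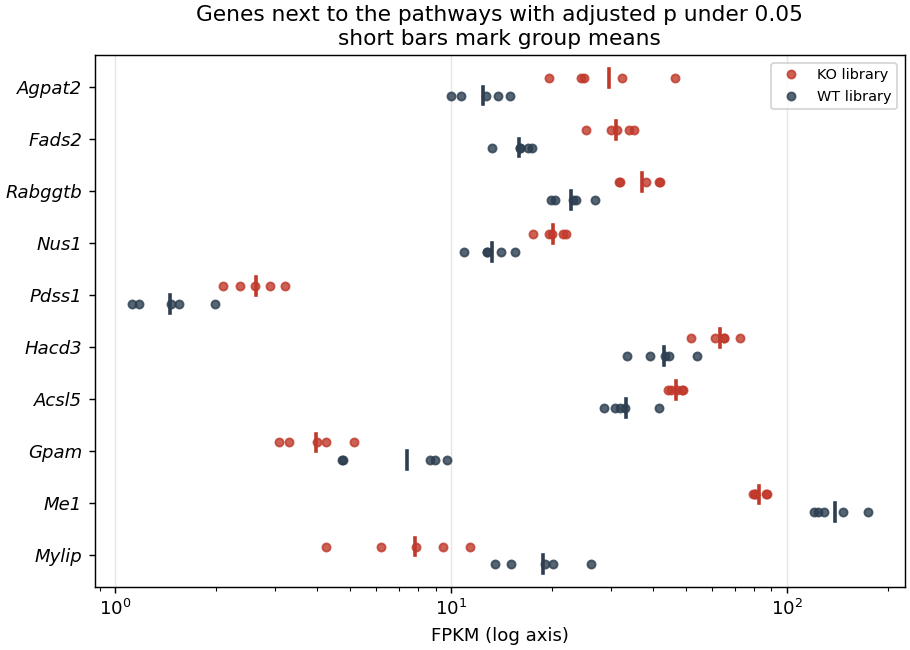
FPKM on a log axis of the 10 genes from the 6 surrounding lists with an adjusted p under 0.05, in KO libraries (red, upper row) and WT libraries (dark, lower row), with short bars at the group means. Agpat2, at 29.5 FPKM in KO and 12.5 FPKM in WT, has the largest increase, and Mylip, at 7.82 FPKM in KO and 18.8 FPKM in WT, the largest decrease.

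Several properties of the libraries were set beside the members. WT 2 was the lowest of the 10 libraries for 8 members: Mvk, Mvd, Lss, Acly, Fasn, Scd2, Srebf2 and Scap. The transcripts of these 8 genes had a median GC content of 56.2%, against 47.1% for the other 23. The deviation of the tested genes richest in GC from their mean over the libraries, minus that of the genes poorest in GC (medians over quartiles, log2 scale), was -0.305 in WT 2 and between -0.154 and 0.168 in the other libraries. After a correction for GC content in each library, chosen after seeing the data, the counts were again 5 members higher and 1 lower, and the medians 0.14 for sterol and 0.00 for fatty acid enzymes. Lipid synthesis can follow the time of day, so clock genes were examined. Among 10 of them, 8 had a negative and 2 a positive log2 fold change, with a median of -0.68. The mean log2 level of Dbp, Nr1d1, Per3 and Tef was 1.48 to 4.08 in KO and 2.50 to 4.69 in WT, and of 10 clock genes none passed in limma, nor at an unadjusted p under 0.05. With that level as a covariate 4 members were higher and 1 lower, and Stard4 was the call lost (adjusted p = 0.0695). The clock level was 2.13, 2.23 and 1.48 in KO 3, 4 and 5, below the lowest WT level, 2.50 in WT 3. In KO 1 and KO 2 it was 4.08 and 3.76, within the WT range. Its part in the levels of single libraries was not tested.

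Fibroblast markers summed to 0.07 to 1.13 FPKM in KO and 4.44 to 13.6 FPKM in WT, with Col1a2 listed at 0 in all. Dcn alone, a proteoglycan gene, had 0.308 ± 0.459 FPKM in KO and 8.59 ± 3.93 FPKM in WT (SD, n = 5 each; limma adjusted p = 8.6e-05), and the other 5 stayed below 1 FPKM. Endothelial and muscle markers all stayed below 1 FPKM. With the mean level of these 19 markers as a covariate, which separates the genotypes through Dcn, 0 members passed in limma, and 17 genes were higher and 19 lower in all. With Dcn left out of that level, a choice made after seeing the data, 5 members were higher and 0 lower.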

How the data were processed

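RNA-seq of esophageal epithelium from 5 KO and 5 WT libraries was used. The authors deposited 1 table of FPKM values with 2 decimals, in 1 column per library. The tools named in the submitters' processing notes are HTSeq 0.6.1, HISAT2 2.0.1 and cutadapt, with mm9 as the build. Their settings, the annotation and whether counting used strand are not stated in the labels, and neither is the total behind the per-million scaling. FPKM are no counts, so no count model was fitted. Fragment totals were estimated as the smallest total at which FPKM of single-exon genes up to 1200 bp become whole fragments (97.9% to 98.7% of values within 0.01 fragments beyond rounding), with exon lengths from GENCODE M21 on GRCm38. By those lengths each member rests on at least about 166 fragments per library.

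The 11386 genes that reached 1 FPKM in 5 or more libraries were tested as log2(FPKM + 1) by limma 3.58.1 (R 4.3.3) in a model of genotype alone, with trended and robust empirical Bayes and Benjamini-Hochberg adjustment. Fold changes are KO minus WT on this log2(FPKM + 1) scale and come out too small for low genes. The test was checked on simulated data, where it recovered 23.9%, 83.6% and 92.4% of log2 changes of 0.5, 1 and 2. Of its calls there 3.6% were false. The simulation changed fewer genes than were called in the real data, so its adjusted threshold was stricter. Python 3.11.15 with numpy 2.4.6, pandas 2.3.3, scipy 1.17.1 and matplotlib 3.10.9 did the rest. Sequence shared between genes was counted as 31-base words in GENCODE M21 transcripts. The members, lists and motifs were chosen with earlier results of these data known. All 31 members are named, with values per library for those past the threshold, for Srebf1, Srebf2, Insig1, Insig2, Scap, Fasn, Hmgcs1 and Scd2. Other lists are represented by genes past the threshold. Dhcr7, Fads1, Abca1, Dcn and the split into early and late sterol steps were singled out after their values were seen. Alternatives were other pseudocounts, filters, scalings and variance settings, sample weights, the replicate number as a block, covariates and leaving out each library; GC correction and the covariate without Dcn were added after seeing the data. Some genes of these pathways are not reported here.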

Additional observations from a re-analysis of the deposited data

Results flagged for a closer look

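In 62 groups of 5 values (31 members in KO and in WT), 6 held 1 library far from the other 4; chance gives about 1 in 20 groups. Each is given as FPKM. Idi1 was 24.37 in KO 1, above 16.76 to 18.91 in the other KO libraries. Sqle was 63.79 in WT 3, above 44.79 to 50.01 in the other WT libraries. Nsdhl was 32.59 in WT 3, above 24.79 to 26.79, and Stard4 was 26.21 in WT 3, above 19.08 to 21.04. Lss was 11.3 in WT 2, below 15.71 to 17.31. Insig2 was 8.5 in KO 2, below 9.52 to 9.78. Thus 3 of the 5 members that were higher in KO had WT 3 as their distant WT library. Without WT 3 the adjusted p (limma) of Sqle was 0.00423, that of Nsdhl 0.00665 and that of Stard4 0.00973, and 6 members were higher and 0 lower.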

How the results depend on the processing

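With 5 members higher and 1 lower as reported, the count of higher members was 3 with no filter, 3 with the replicate block and 0 with the mesenchyme and muscle covariate, and 2 to 6 without single libraries. The count of lower members was 0 with pseudocounts of 0.1 and 5, no filter, a filter at 5 FPKM, neither trend nor robust estimation, the replicate block, or the mesenchyme and muscle covariate with or without Dcn; it was 2 with sample weights and 0 to 2 without single libraries. The cause was not tested. The sterol median (0.15) moved to 0.02 with quantile normalization and to -0.09 with the mesenchyme and muscle covariate. Gpam turned to 0.32 with that covariate (adjusted p = 1). Acat2 and Sqle kept their calls under 22 of 23 alternatives, all but that covariate, Nsdhl under 21, Idi1 under 18, Stard4 under 11, and Acaca under 6 of 22. Over all tested genes 900 were higher and 565 lower; 511 and 466 with no filter, 1390 and 787 with sample weights, 686 and 329 at 5 FPKM, and 436 to 1091 higher and 357 to 679 lower without single libraries. Higher genes were 61.4% of calls, but 46.6% with median-ratio scaling and 47.9% with quantile normalization. Whether replicate numbers pair the libraries is not given. Correlations of deviations between KO and WT libraries of the same number were -0.241 to 0.423. Only KO 2 had the WT library of its own number as its best match, which does not settle whether other numbers were paired. With the replicate block Acaca, Idi1 (adjusted p = 0.0563) and Stard4 (0.0676) lost their calls.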
